A study of Mus musculus with 12 samples.

Results

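The 10 genes described here make, regulate and break down polyamines. They are Odc1, Amd1, Srm, Sms, Azin1, Oaz1, Oaz2, Sat1, Smox and Paox. They were taken by name: every probe whose gene name in the files, or whose current symbol for the probe's accession, was one of these 10. This gave 24 probes of the 41174 on the array. All 24 passed the filter on dim probes, which 29017 probes of 19304 genes passed in all. The rule itself used names and no measured value, but the genes were chosen with earlier results of these data known.

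Transcripts were measured in whole uteri of 12 mice, 1 mouse on each single-colour array, in 4 groups of 3 mice. The groups were EAAE mice given estradiol (E2), EAAE mice given saline, wild-type (WT) mice given E2 and WT mice given saline. EAAE is the Esr1 genotype named in the labels, and per the series title it makes the estrogen receptor alpha deficient in DNA binding. WT mice carry the normal Esr1 gene. All mice were females of strain C57bl6/Jx129, at least 10 weeks old, with the ovaries removed 10 to 14 days earlier. Each was injected with 100 ul of its agent, and the uterus was frozen 2 h later. The dose of E2, the zygosity and the number of founding lines are not given in the sources used here. The change lies in how the receptor protein binds DNA, so transcript levels give no direct check of the genotype.

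Ornithine decarboxylase, encoded by Odc1, turns ornithine into putrescine, and S-adenosylmethionine decarboxylase, encoded by Amd1, makes the aminopropyl donor. Spermidine synthase (Srm) and spermine synthase (Sms) then add aminopropyl groups in turn. Antizymes (Oaz1 and Oaz2) bind ornithine decarboxylase, send it to the proteasome and block polyamine uptake, while the antizyme inhibitor Azin1 binds the antizymes and frees the enzyme. The acetyltransferase Sat1 marks polyamines for export or oxidation, Paox oxidises the acetylated forms, and Smox oxidises spermine directly. A rise of ornithine decarboxylase activity soon after estrogen is a long known response of the rodent uterus, and polyamines are needed for its growth and for decidualization.

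The sequences shown first are the stretches upstream of the genes whose transcripts moved most between the groups, because the genotypes differ in how the estrogen receptor meets DNA. RefSeq promoters of build GRCm38.p6 (250 bases before to 50 after a transcript start) were at hand for 8 of the 10 genes, in 10 windows. Srm and Azin1 had no entry. The 250 bases before the start are printed 5′ to 3′ on the gene's strand. Capitals mark GC boxes, the letters GGGCGG on either strand, which the factor Sp1 is known to bind and through which the estrogen receptor can act without touching DNA. The Odc1 stretch is chr12:17544623-17544872 (plus strand), the Amd1 stretch chr10:40302189-40302438 (minus strand) and the Paox stretch, before one of its listed starts, chr7:140125435-140125684 (plus strand).
Odc1: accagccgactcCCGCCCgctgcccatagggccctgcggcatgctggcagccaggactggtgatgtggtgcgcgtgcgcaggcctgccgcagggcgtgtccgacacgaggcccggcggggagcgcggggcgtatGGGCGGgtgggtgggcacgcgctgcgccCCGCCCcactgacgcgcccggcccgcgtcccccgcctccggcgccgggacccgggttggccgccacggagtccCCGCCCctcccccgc
Amd1: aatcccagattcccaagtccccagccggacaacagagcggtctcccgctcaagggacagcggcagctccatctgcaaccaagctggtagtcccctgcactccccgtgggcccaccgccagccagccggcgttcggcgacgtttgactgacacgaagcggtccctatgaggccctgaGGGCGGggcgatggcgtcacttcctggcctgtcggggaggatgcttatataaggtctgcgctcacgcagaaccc
Paox: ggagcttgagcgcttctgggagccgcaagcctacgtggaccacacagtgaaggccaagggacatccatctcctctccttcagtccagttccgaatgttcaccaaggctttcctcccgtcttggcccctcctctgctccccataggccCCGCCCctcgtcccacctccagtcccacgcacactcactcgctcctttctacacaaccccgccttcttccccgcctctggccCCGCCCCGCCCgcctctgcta
A GC box stood in 8 of the 10 windows, against 35.7% of all 32851 promoters of the same length. The 2 Paox windows among them overlap and hold the same 3 boxes. There were 4 in the Odc1 window, 1 in the Amd1 window and 3 in this Paox window, of which the last 2 overlap by 1 base. The windows not shown here held as many or more in part: 6 for Smox, 4 for Oaz2, 2 for Sat1 and 0 for Oaz1. The windows of the 2 Sms starts held 4 and 0. The boxes were thus not particular to the genes that moved most. This motif was chosen after the sequences had been seen. The GC content of the Odc1 window was 78.0%, against a median of 52.7% over all promoters. The full palindromic estrogen response element, searched as GGTCANNNTGACC, was in 0 of the 10 windows and in 0.07% of all promoters. The E-box CACGTG, which Myc and Max bind, was in 1 of the 10 windows and in 7.15% of all promoters. That window belonged to 1 of the Sms starts, with the E-box 196 bases before it, in the stretch chrX:157492288-157492537 (minus strand), where the capitals mark the E-box.
Sms: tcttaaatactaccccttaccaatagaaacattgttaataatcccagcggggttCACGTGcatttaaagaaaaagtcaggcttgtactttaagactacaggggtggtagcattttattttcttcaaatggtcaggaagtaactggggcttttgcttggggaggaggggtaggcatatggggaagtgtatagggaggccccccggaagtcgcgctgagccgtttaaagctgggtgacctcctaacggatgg
Myc is known to act on E-boxes in the first intron of Odc1, which lies outside the window. These matches are descriptions of letters, and no binding was measured.

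Each probe is a 60-base sequence on the array. Odc1 had 3 probes, and the sequences of the pair that lie further upstream in the gene are shown because all 3 moved alike, as described with the E2 response. They lie at chr12:17598312-17598371 and chr12:17600319-17600375 in the files' coordinates (mm7), and no letter in them is singled out.
Odc1 upstream probe: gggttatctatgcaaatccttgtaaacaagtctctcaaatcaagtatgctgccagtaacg
Odc1 middle probe: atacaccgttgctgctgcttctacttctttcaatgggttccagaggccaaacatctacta
The brightest Odc1 probe lies further downstream, at chr12:17601268-17601326. Whether a probe lies in an exon or a UTR is not given here, since no annotation of that build was used.

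Levels are log2 intensities minus the 75th percentile of the array, so 0 is the level of a probe brighter than 75% of the spots, and 1 unit is a doubling. A probe's level depends on its sequence, so levels of different genes are not set against each other. On all 12 arrays 23 of the 24 probes stood well above background, and 0 were saturated. The dimmest of the 3 Sms probes was above background on 6. Where a gene had several probes, the brightest stood for it, and the others are given where they differed. Changes were called at an adjusted p under 0.05 (limma, Benjamini-Hochberg over all 19304 genes). Over the genes tested, each read from its brightest probe, r was 0.9825 to 0.9934 in the 12 pairs of arrays within a group. It was 0.9184 to 0.9883 in the 54 pairs across groups. On each array 64.0 to 74.0% of the probes stood well above background. All 5 uterus markers, including Esr1, Pgr and Hoxa10, were above background on every array.

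**Figure D1:**
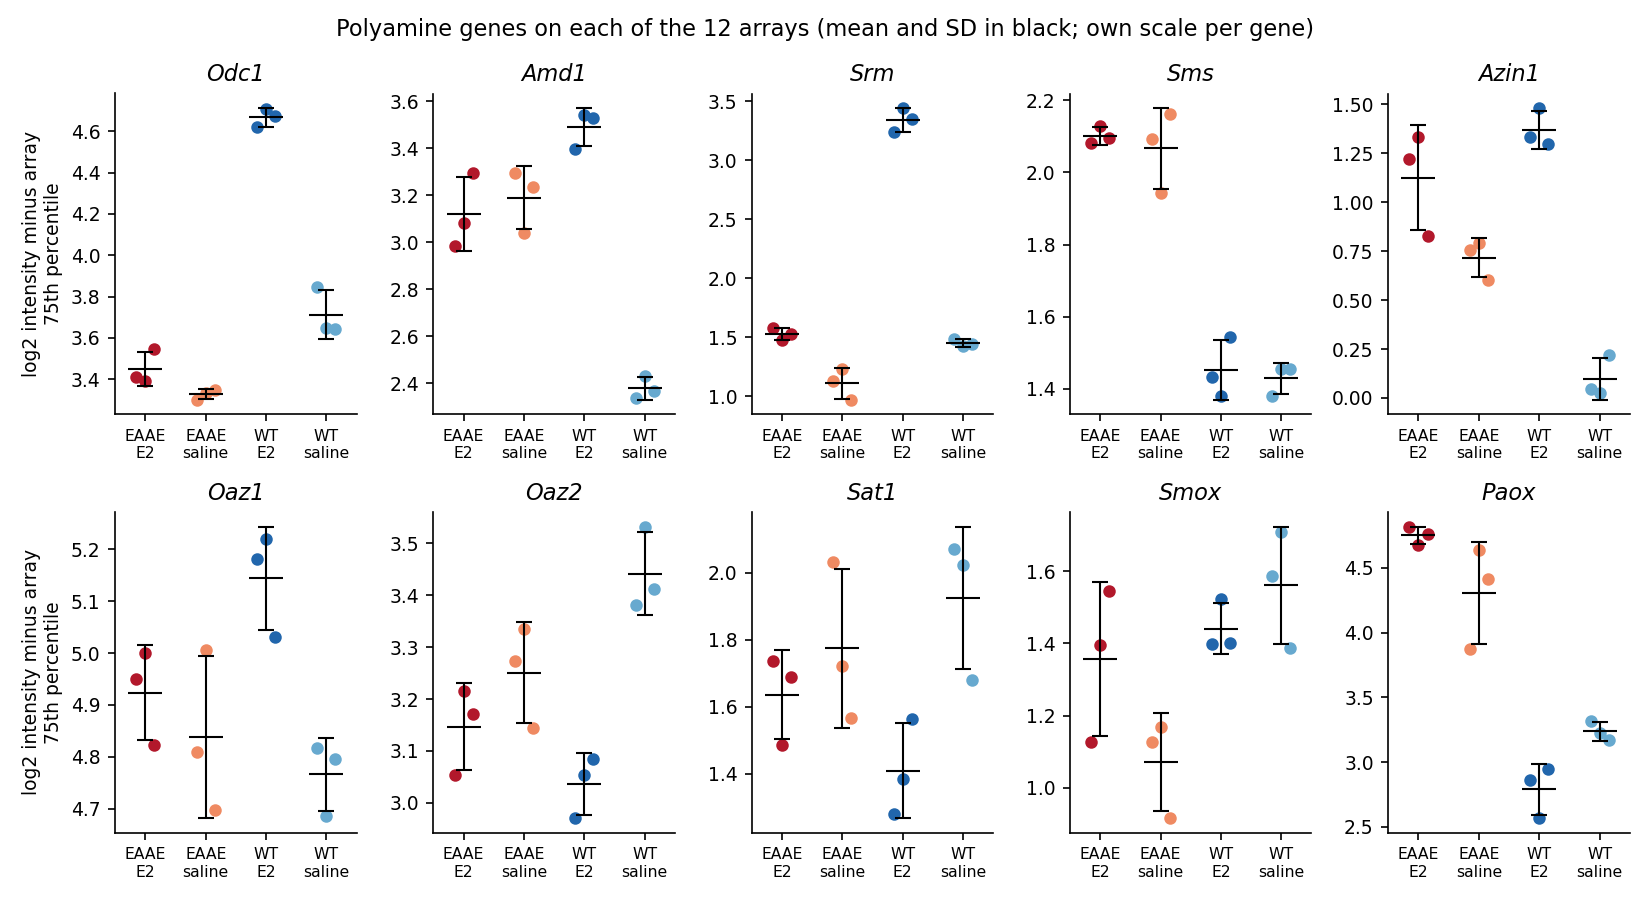
Level of each of the 10 genes (brightest probe, log2 intensity minus the array's 75th percentile) on each array, in EAAE E2, EAAE saline, WT E2 and WT saline uteri; points are mice, black marks are the mean and SD of 3, and each panel has its own scale. WT E2 has the highest mean for Odc1, Srm, Amd1, Azin1 and Oaz1, while both EAAE groups stand above both WT groups for Sms and Paox.

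E2 raised the synthesis enzymes Srm, Amd1 and Odc1 and the antizyme inhibitor Azin1 in the WT uterus by 1.94 to 3.70-fold within 2 h. In the EAAE uterus, Odc1 and Amd1 did not change past the threshold, Azin1 stood 0.41 higher on the log2 scale without passing it, and Srm rose 1.34-fold. Of the 10 genes, 5 rose and 2 fell in WT, and 1 rose and 0 fell in EAAE. At an unadjusted p under 0.05 by limma, 4 differed in EAAE, all higher, but the share of all genes at that cutoff was not taken. Past the adjusted threshold, 19.6% of all 19304 genes rose and 29.7% fell in WT (49.3% in either direction). In EAAE 0.689% rose and 0.762% fell (1.45%). As counts these were 3784 and 5742 genes in WT and 133 and 147 in EAAE. With array median scaling, which shifts the median change of all genes in WT to -0.01, they were 4510 and 3932 in WT and 128 and 76 in EAAE. The median change of the 10 genes was 0.10 in EAAE, against 0.02 for all genes, and 0.20 in WT, against -0.15 for all genes. The E2 and saline uteri did not overlap for 4 of the 10 genes in EAAE, against 18.5% of all genes, and for 8 of 10 in WT, against 64.5% of all genes. The question behind this pair of comparisons is which early E2 responses need the receptor's own DNA binding.

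Odc1, the first and rate-limiting enzyme, lay at 3.41, 3.39 and 3.54 in EAAE E2 uteri, against 3.30, 3.33 and 3.35 in EAAE saline uteri. It lay at 4.62, 4.71 and 4.68 in WT E2 uteri, against 3.85, 3.65 and 3.64 in WT saline uteri. All 3 WT E2 uteri were above every other uterus, and all 6 EAAE uteri were below every WT uterus. The change with E2 was 0.12 in EAAE (SE 0.08, adjusted p = 0.484) and 0.95 in WT (SE 0.08, adjusted p = 7.25e-06). The other probes, shown above, gave 0.08 and 0.05 in EAAE and 0.96 and 0.90 in WT, both called in WT. The groups ran, from high to low, WT E2, WT saline, EAAE E2 and EAAE saline. WT E2 and WT saline differed past the threshold, EAAE E2 and EAAE saline did not, and WT saline was not tested against EAAE E2.

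Srm, which makes spermidine (chr4:147583866-147583925, mm7, 1 probe), lay at 1.58, 1.48 and 1.53 in EAAE E2 uteri, against 1.13, 1.23 and 0.97 in EAAE saline uteri. It lay at 3.24, 3.44 and 3.35 in WT E2 uteri, against 1.49, 1.43 and 1.45 in WT saline uteri. The groups did not overlap in either genotype, and EAAE E2 uteri lay beside WT saline uteri (1.48 to 1.58 against 1.43 to 1.49), a pair that was not tested. Its rise of 1.89 in WT (SE 0.09, 3.70-fold, adjusted p = 1.50e-07) was the largest of the 10 genes, against 0.42 in EAAE (SE 0.09, 1.34-fold, adjusted p = 0.0465). The EAAE call was close to the threshold: it was lost when any 1 of the 12 arrays was left out (adjusted p of 0.0591 to 0.127) and in 6 of the 11 other settings, with changes of 0.35 to 0.48 throughout.

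Amd1, which supplies the aminopropyl donor (chr10:40074792-40074851, mm7), lay at 2.99, 3.08 and 3.30 in EAAE E2 uteri, against 3.29, 3.04 and 3.24 in EAAE saline uteri. It lay at 3.40, 3.54 and 3.53 in WT E2 uteri, against 2.34, 2.43 and 2.37 in WT saline uteri. The EAAE groups overlapped, and both lay between the WT groups. The change was -0.07 in EAAE (SE 0.10, adjusted p = 0.784) and 1.11 in WT (SE 0.10, 2.16-fold, adjusted p = 1.16e-05), and the dimmer probe gave -0.26 and 1.13. Mouse Amd2 is a near-identical copy of Amd1, and the files place the Amd2 probe (chr10:40076544-40076603) 827 bases from an Amd1 probe, so transcripts of the pair may not be told apart here.

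Sms, which makes spermine (chrX:152220136-152220195, mm7), did not change past the threshold in either genotype. It lay at 2.08, 2.13 and 2.09 in EAAE E2 uteri, against 2.09, 1.94 and 2.16 in EAAE saline uteri, and the change was 0.03 (95% interval -0.14 to 0.21). In WT it lay at 1.43, 1.38 and 1.54 with E2 and at 1.38, 1.45 and 1.46 with saline, and the change was 0.02 (95% interval -0.15 to 0.20). Its other probes gave -0.16 and 0.25 in EAAE and -0.33 and -0.35 in WT, none of them past the threshold.

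Azin1, the antizyme inhibitor (chr15:38601065-38601124, mm7), lay at 1.22, 1.33 and 0.83 in EAAE E2 uteri, against 0.76, 0.79 and 0.60 in EAAE saline uteri. It lay at 1.33, 1.48 and 1.30 in WT E2 uteri, against 0.05, 0.03 and 0.22 in WT saline uteri. Neither pair of groups overlapped, and EAAE E2 replicate 3 stood closest to its saline group. The change was 0.41 in EAAE (SE 0.13, adjusted p = 0.159) and 1.27 in WT (SE 0.13, 2.42-fold, adjusted p = 2.44e-05). All 3 probes rose in WT, by 1.20 to 1.27, and stood 0.22 to 0.41 higher in EAAE. Without EAAE E2 replicate 3 the EAAE change was 0.56 and was called (adjusted p = 0.0294).

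The antizymes moved in opposite directions in WT, by less than the synthesis genes. Oaz1 (chr10:80618459-80618518, mm7) lay at 4.95, 5.0 and 4.82 in EAAE E2 uteri, against 4.81, 5.01 and 4.70 in EAAE saline uteri, with overlapping groups. In WT it lay at 5.18, 5.22 and 5.03 with E2 and at 4.82, 4.69 and 4.80 with saline, which did not overlap. Its change was 0.09 in EAAE (adjusted p = 0.709) and 0.38 in WT (SE 0.10, 1.30-fold, adjusted p = 0.0089), where the other probe gave 0.27 (adjusted p = 0.0567 over all probes). The WT call was lost with normexp background correction (0.25, adjusted p = 0.0564).

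Oaz2 (chr9:65719427-65719486, mm7) lay at 3.05, 3.22 and 3.17 in EAAE E2 uteri, against 3.27, 3.33 and 3.14 in EAAE saline uteri. It lay at 2.97, 3.05 and 3.09 in WT E2 uteri, against 3.38, 3.53 and 3.41 in WT saline uteri. Only the WT groups were apart. Its change was -0.10 in EAAE (adjusted p = 0.572) and -0.41 in WT (SE 0.08, adjusted p = 0.00232). Of its 4 probes, 2 were called lower in WT and the others gave -0.22 and -0.08. With array median scaling the difference was -0.27 and was not called (adjusted p = 0.0651).

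Among the breakdown genes, the acetyltransferase Sat1 fell in WT and the oxidases did not pass the threshold. Sat1 (chrX:150014127-150014157, mm7) lay at 1.74, 1.49 and 1.69 in EAAE E2 uteri, against 2.03, 1.72 and 1.57 in EAAE saline uteri. It lay at 1.28, 1.38 and 1.56 in WT E2 uteri, against 2.07, 2.02 and 1.68 in WT saline uteri. The EAAE groups overlapped and the WT groups did not. The change was -0.14 in EAAE (adjusted p = 0.686) and -0.52 in WT (SE 0.15, adjusted p = 0.0144), and the dimmer probe gave -0.42 in EAAE (adjusted p = 0.223) and -0.46 in WT (adjusted p = 0.0323). The WT call was lost with array median scaling (-0.38, adjusted p = 0.069) and without WT E2 replicate 1 (-0.45, 0.0527), WT saline replicate 1 (-0.44, 0.0551) or WT saline replicate 2 (-0.47, 0.0506).

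Smox, the spermine oxidase (chr2:131265828-131265887, mm7), lay at 1.13, 1.40 and 1.55 in EAAE E2 uteri, against 1.13, 1.17 and 0.92 in EAAE saline uteri. It lay at 1.40, 1.52 and 1.40 in WT E2 uteri, against 1.59, 1.71 and 1.39 in WT saline uteri. Both pairs of groups overlapped. The change was 0.29 in EAAE (adjusted p = 0.303) and -0.12 in WT (adjusted p = 0.452), with -0.23 and -0.10 on the dimmer probe.

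Paox, the oxidase of acetylated polyamines (chr7:136548060-136548119, mm7), lay at 4.82, 4.68 and 4.76 in EAAE E2 uteri, against 3.87, 4.64 and 4.42 in EAAE saline uteri. It lay at 2.86, 2.57 and 2.95 in WT E2 uteri, against 3.31, 3.23 and 3.17 in WT saline uteri. E2 uteri stood above saline uteri in EAAE and below them in WT, with no overlap in either. Neither change passed the threshold: it was 0.44 in EAAE (SE 0.17, adjusted p = 0.247) and -0.45 in WT (SE 0.17, adjusted p = 0.0542). The other probe gave 0.55 and -0.40. The WT fall was called in 6 of the 23 alternatives.

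**Figure D2:**
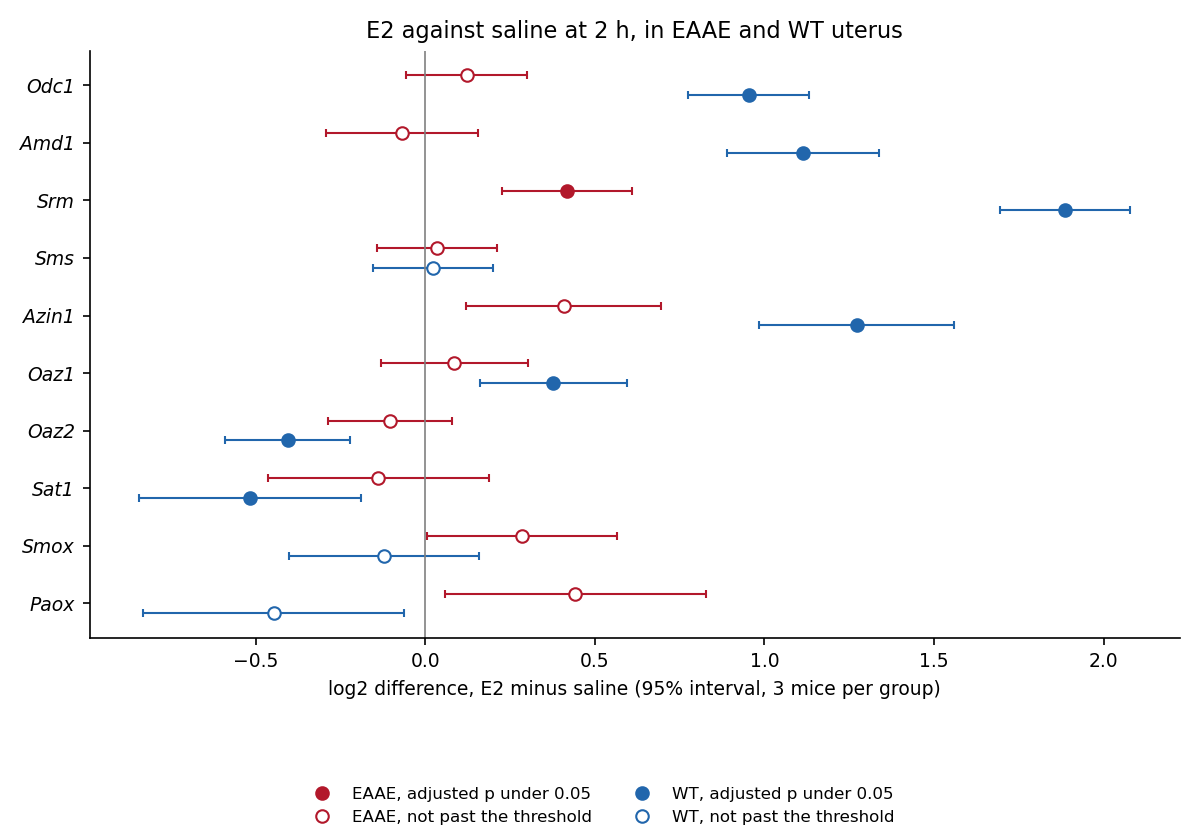
Log2 difference between E2 and saline uteri in EAAE (red) and WT (blue) for each gene, with 95% intervals from 3 mice per group; filled points passed an adjusted p of 0.05. The WT points of Odc1, Amd1, Srm and Azin1 lie between 0.95 and 1.89, the EAAE points of the same genes between -0.07 and 0.42, and the points of Paox lie on opposite sides of 0.

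The difference between the responses, EAAE minus WT, was past the threshold for 5 of the 10 genes, 1 higher and 4 lower. Over all genes 22.2% were higher and 15.1% lower (37.3% in either direction). The response of Srm was smaller in EAAE by 1.47 (SE 0.12, adjusted p = 1.69e-05), and that of Amd1 was -1.18 (SE 0.14, adjusted p = 0.000177). Azin1 differed by -0.86 (SE 0.18, adjusted p = 0.00453) and Odc1 by -0.83 (SE 0.11, adjusted p = 0.000354). Paox differed the other way, by 0.89 (SE 0.25, adjusted p = 0.017). These 5 kept their calls in all 22 alternatives run on them, of which the deposited table held the same intensities and could not differ. Oaz2 (0.30, adjusted p = 0.0666), Smox (0.41, 0.098), Sat1 (0.38, 0.177), Oaz1 (-0.29, 0.123) and Sms (0.01, 0.942) were not called, and the intervals of Sat1 (-0.08 to 0.84) and Oaz1 (-0.60 to 0.02) leave room for differences of some size. The unadjusted interval of Oaz2 ran from 0.04 to 0.56, and its response difference was called with quantile scaling (0.38, adjusted p = 0.0276). Within slides, the E2 response in EAAE on slides 1 and 2 was 0.35 and 0.43 for Srm, -0.05 and -0.18 for Amd1, 0.43 and 0.65 for Azin1 and 0.08 and 0.07 for Odc1. In WT on slides 1 and 3 it was 1.86 and 2.00 for Srm, 1.20 and 1.14 for Amd1, 1.25 and 1.36 for Azin1 and 0.83 and 1.06 for Odc1. In these 4 genes every WT value exceeded every EAAE value. The ranges of the 4 groups already fixed this outcome for any pairing of mice, so it is no further evidence.

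**Figure D3:**
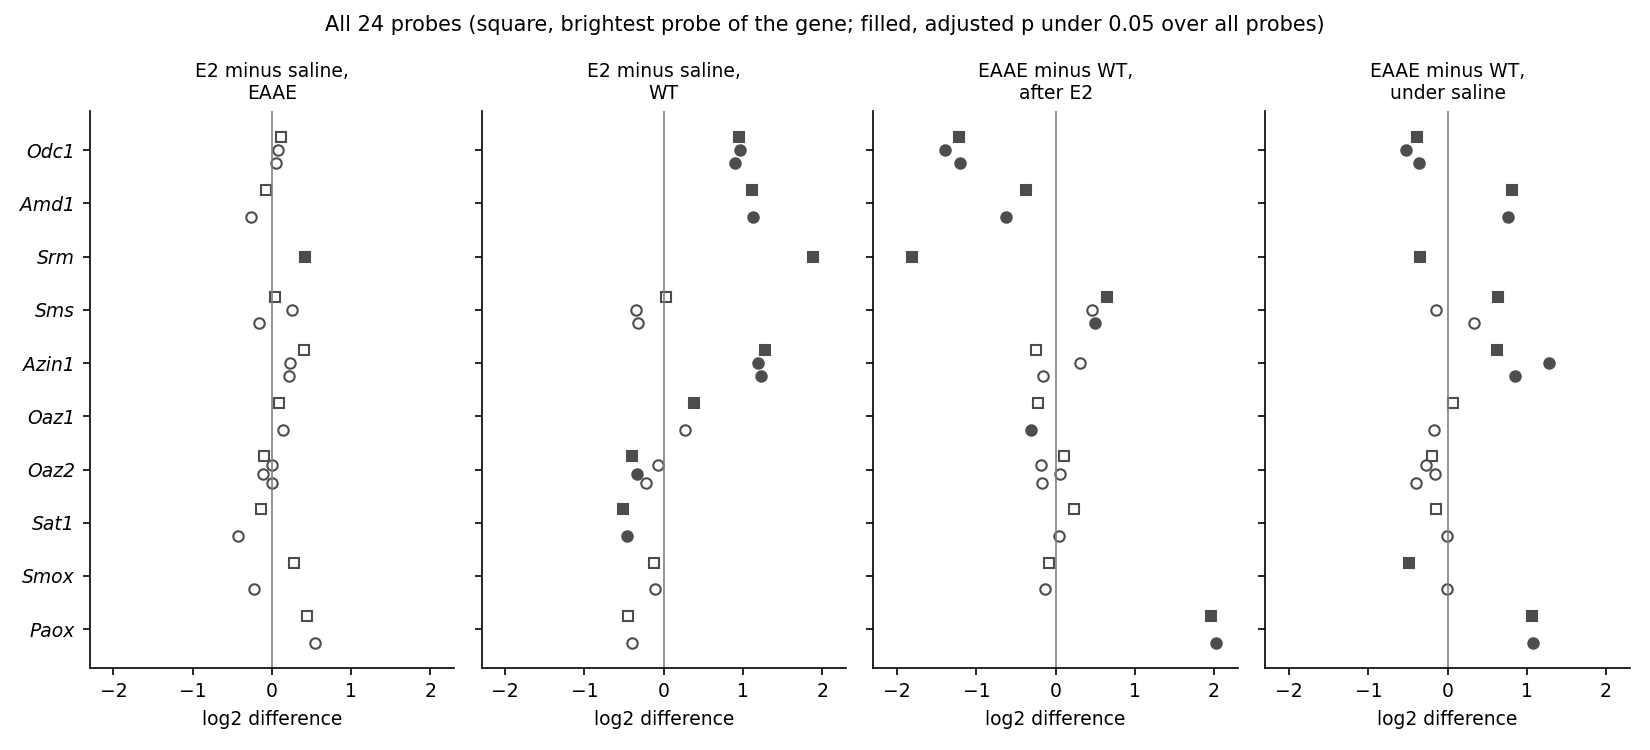
Log2 difference of each of the 24 probes in 4 comparisons (E2 minus saline in EAAE and in WT, EAAE minus WT after E2 and under saline); squares are the brightest probe of each gene, circles the others, and filled marks passed an adjusted p of 0.05 over all probes. The 3 Odc1 probes, the 2 Amd1 probes and the 2 Paox probes lie on the same side of 0 within each panel, while the Sms and Smox probes spread apart under saline.

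Before any E2, the EAAE uterus differed from the WT uterus in 7 of the 10 genes. Paox, Amd1, Sms and Azin1 were higher in EAAE and Smox, Odc1 and Srm were lower. Over all genes 14.5% were higher and 15% lower under saline (29.6%). The median of the 10 genes was -0.04, against 0.00 for all genes. Paox was higher by 1.07 (SE 0.17, 2.10-fold, adjusted p = 0.00132), Amd1 by 0.81 (SE 0.10, 1.76-fold, adjusted p = 0.000258), Sms by 0.64 (SE 0.08, 1.55-fold, adjusted p = 0.000258) and Azin1 by 0.62 (SE 0.13, 1.54-fold, adjusted p = 0.00536). Odc1 was lower by a log2 change of -0.39 (SE 0.08, adjusted p = 0.00527), Srm of -0.34 (SE 0.09, adjusted p = 0.0135) and Smox of -0.49 (SE 0.13, adjusted p = 0.0149). In these 7 genes the values of EAAE saline and WT saline uteri, given with the E2 responses, did not overlap, and nor did those of Oaz2, so 8 of 10 genes were apart, against 46.9% of all genes. Oaz1 (0.07), Oaz2 (-0.19) and Sat1 (-0.15) were not called.

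Further probes bore on these calls unequally. All 3 Odc1 probes (-0.52 to -0.36), all 3 Azin1 probes (0.62 to 1.28) and both probes of Amd1 and Paox were called. The other Sms probes gave 0.33 (adjusted p = 0.135) and -0.14 (adjusted p = 0.665), and the other Smox probe gave -0.00 (adjusted p = 0.989), so the saline calls of Sms and Smox rest on 1 probe each. With slide as a block, 3 of the 7 calls were left, those of Paox, Amd1 and Sms. With position on the slide as a further term none was. WT saline uteri were at places 1, 1 and 2 on their slides and EAAE saline uteri at 2, 3 and 3. This fit therefore separates genotype from position poorly, and the SE of Odc1 went from 0.08 to 0.20. The differences were then 1.02 for Paox, 0.97 for Amd1, 0.57 for Sms, -0.35 for Odc1 and -0.27 for Srm, while Azin1 stood at 0.21 and Smox at -0.12. EAAE saline and WT saline uteri met on 1 of the 3 slides, where 1 mouse of each gave 1.33 for Paox, 0.70 for Amd1, 0.56 for Sms, 0.74 for Azin1, -0.42 for Smox, -0.51 for Odc1 and -0.26 for Srm. Since the saline groups did not overlap for these 7 genes, this pair had to lie on the same side as all mice.

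After E2, Odc1, Srm and Amd1 were lower and Paox and Sms higher in the EAAE uterus. That made 2 higher and 3 lower of 10, beside 33.5% higher and 24.5% lower over all genes (58%). The median of the 10 genes was -0.15, against 0.11 for all genes. Srm differed by -1.81 (SE 0.09, 3.51-fold lower in EAAE, adjusted p = 9.02e-08) and Odc1 by -1.22 (SE 0.08, 2.33-fold lower, adjusted p = 7.40e-07). Amd1, which was higher in EAAE under saline, was lower by -0.37 (SE 0.10, adjusted p = 0.00946) after E2. Paox was higher by 1.96 (SE 0.17, 3.89-fold, adjusted p = 5.41e-06) and Sms by 0.65 (SE 0.08, 1.57-fold, adjusted p = 5.21e-05), close to its difference under saline. For Azin1, Oaz1, Oaz2, Sat1 and Smox the differences lay between -0.24 and 0.23 and were not called. EAAE E2 and WT E2 uteri did not overlap for 6 of the 10 genes, the 5 called and Oaz1, against 64.4% of all genes. The 3 Azin1 probes gave -0.24, -0.16 and 0.31. Oaz1 gave -0.22 (adjusted p = 0.0776) on its brightest probe, and its other probe was called lower in EAAE (-0.31, adjusted p = 0.0301). Oaz1 was also called lower with array median scaling (-0.30, adjusted p = 0.0398), with normexp background correction (-0.32, 0.0175) and with the median over its probes (-0.26, 0.0439). The other Sms probes gave 0.50 (adjusted p = 0.0168) and 0.46 (adjusted p = 0.109).

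On each of the 3 slides lay 1 EAAE E2 and 1 WT E2 uterus, so this difference could be read within slides. Srm gave -1.77, -1.76 and -1.91, Odc1 -1.26, -1.23 and -1.16, and Paox 1.87, 1.82 and 2.19. Amd1 gave -0.55, -0.31 and -0.25, and Sms 0.54, 0.69 and 0.71. Since the EAAE E2 and WT E2 uteri did not overlap for these 5 genes, each slide had to show the direction of the whole. Every EAAE E2 uterus was at the fourth place on its slide, and a fit with slide and position lost the Amd1 call (-0.28, adjusted p = 0.357). The comparisons of genotype and of E2 share groups of mice, so their values are given side by side and not correlated.

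**Figure D4:**
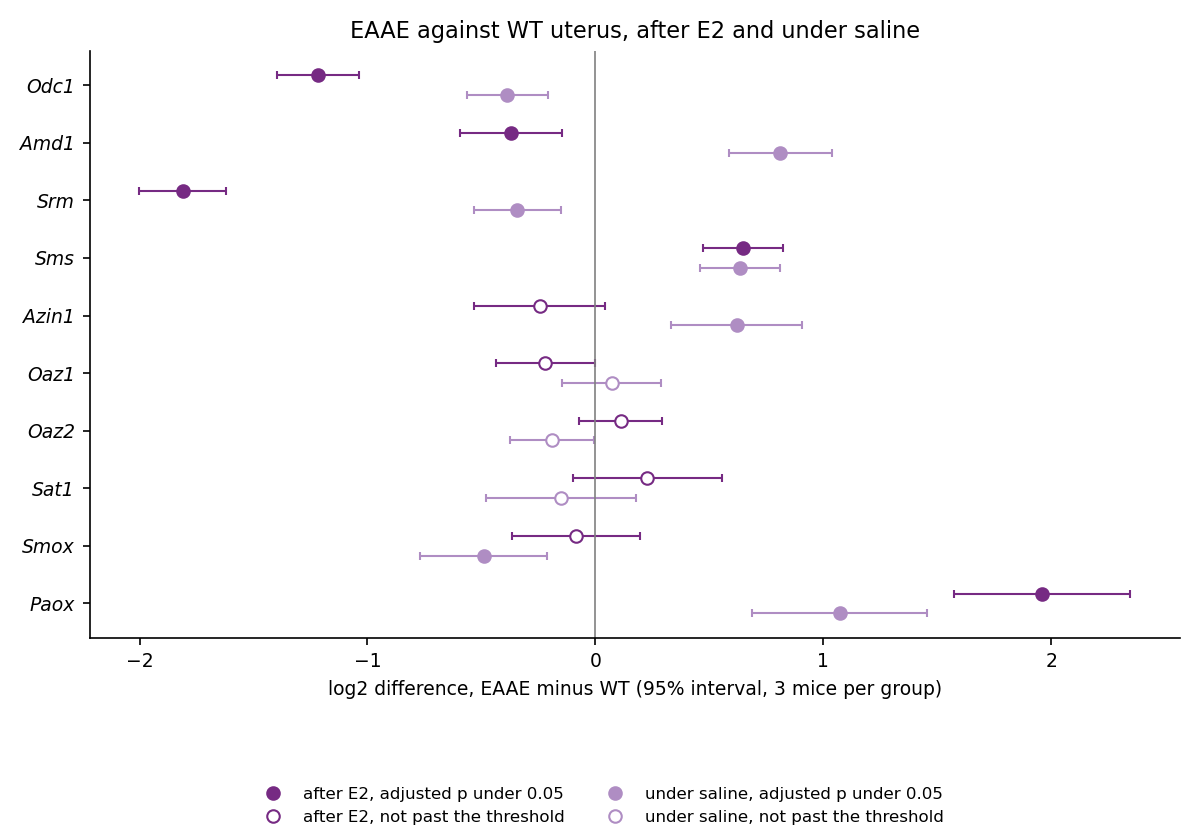
Log2 difference between EAAE and WT uteri after E2 (dark) and under saline (light) for each gene, with 95% intervals from 3 mice per group; filled points passed an adjusted p of 0.05. Paox and Sms lie right of 0 in both states, Odc1 and Srm left of 0 in both, and Amd1 lies at 0.81 under saline and at -0.37 after E2.

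Whole uterus was measured, so fewer cells of a type and less RNA per cell cannot be told apart. Markers of other cell types moved with these comparisons. Over all genes, 14.5% were higher and 15% lower in EAAE under saline, and 33.5% and 24.5% after E2. With E2 in WT 19.6% of all genes rose and 29.7% fell. Of 7 epithelium markers 6 were higher in EAAE under saline, with a median of 0.82. Their summed level, in multiples of the array's 75th percentile, was 168 to 199 in EAAE E2, 173 to 213 in EAAE saline, 98.3 to 108 in WT E2 and 109 to 123 in WT saline uteri. Of 10 adipocyte markers 8 fell with E2 in WT (median -3.15), and their sums were 58.4 to 290 in EAAE E2, 43.4 to 219 in EAAE saline, 8.88 to 31.5 in WT E2 and 30.4 to 199 in WT saline uteri. Of 7 stroma markers 5 fell with E2 in WT (median -0.74), with sums of 344 to 429, 333 to 347, 299 to 348 and 434 to 477 in EAAE E2, EAAE saline, WT E2 and WT saline uteri. Of 5 macrophage markers 2 were lower and 1 higher in EAAE under saline (median -1.06). Their sums were 29.3 to 118 in EAAE E2, 28.5 to 42.1 in EAAE saline, 61.4 to 77.8 in WT E2 and 97.0 to 154 in WT saline uteri, so the saline groups did not overlap. Of 5 endothelium markers 3 fell with E2 in WT (median -0.36), with sums of 20.0 to 23.6 in EAAE E2, 17.8 to 19.8 in EAAE saline, 10.9 to 11.5 in WT E2 and 19.2 to 23.9 in WT saline uteri. Of 6 smooth muscle markers 4 were lower in EAAE after E2 (median -0.52), with sums of 254 to 422 in EAAE E2, 358 to 397 in EAAE saline, 414 to 501 in WT E2 and 418 to 493 in WT saline uteri. Summed levels of the lymphocyte, oviduct and ovary lists lay at 0.331 to 1.27 on all arrays. The oviduct sums were 0.771 to 0.967 in EAAE saline and 1.02 to 1.15 in WT saline uteri, which did not overlap. Of 3 oviduct markers 2 fell with E2 in WT and 1 was lower in EAAE under saline. After E2, 2 were higher and 1 lower in EAAE. Of 4 ovary markers 2 fell with E2 in WT. In EAAE 1 was higher and 1 lower under saline, and 1 was higher after E2. Of 5 lymphocyte markers 1 was higher in EAAE after E2. Among the markers of the other 6 cell types, 1 adipocyte marker was not above background on every array and none was at 0 throughout. In EAAE after E2, 5 epithelium markers were higher and 1 lower. There 9 adipocyte markers (median 3.67), 4 stroma, 2 endothelium and 1 macrophage marker were higher. Under saline 1 stroma marker was higher and 2 lower in EAAE, and 0 adipocyte, endothelium or smooth muscle markers were called. With E2 in WT 1 epithelium marker rose, 1 macrophage marker fell and 0 smooth muscle markers were called. With E2 in EAAE 1 stroma marker rose and no other of the 6 types had a call. The part of the markers in the changes of the polyamine genes was not tested.

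The genes whose pattern over the 12 arrays lay closest to that of Odc1 were Ttpal, Rasl2-9, Polr1e, LOC547412 and Wdr74. Likeness was the root mean square difference of log2 values, each gene taken around its own mean over the 12 arrays. It was 0.076, 0.077, 0.085, 0.086 and 0.092 for these 5 genes, against a median of 0.655 over 19150 genes and an SD of Odc1 itself of 0.553. Ttpal resembles the tocopherol transfer protein, Polr1e is a subunit of RNA polymerase I and Wdr74 takes part in ribosome assembly. Rasl2-9 is a near-identical copy of the nuclear transport GTPase Ran, so its probe may detect Ran. These genes were chosen for their likeness, so their values are a description. Their changes with E2 were 0.02 to 0.16 in EAAE and 0.88 to 0.96 in WT.

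Around the 10 genes, E2 in the WT uterus raised Arg2 and Mat2a, which supply ornithine and S-adenosylmethionine, and Eif5a, whose product is modified with spermidine, and moved transporters both ways. A list of 28 further genes of the pathway was followed, of which 26 were tested. Oaz3 and Satl1 were not well above background on any array. In EAAE 0 rose and 0 fell, and in WT 8 rose and 9 fell, beside 0.689% and 0.762% in EAAE and 19.6% and 29.7% in WT over all genes. At an unadjusted p under 0.05, 7 of the 26 differed in EAAE by limma, and the share of all genes at that cutoff was not taken. The median change of the 26 was -0.01 in EAAE, against 0.02 for all genes, and -0.19 in WT, against -0.15 for all genes.

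Among the 6 genes of ornithine and arginine supply, 2 rose in WT, beside 19.6% of all genes. Arg2, the arginase that makes ornithine outside the liver, lay at -3.64, -3.24 and -3.42 in EAAE E2 uteri, against -3.49, -3.32 and -3.23 in EAAE saline uteri. It lay at -0.83, -0.64 and -0.84 in WT E2 uteri, against -2.15, -2.36 and -1.87 in WT saline uteri. All EAAE uteri were below all WT uteri, and E2 uteri stood apart from saline uteri in WT alone. The change with E2 was -0.09 in EAAE (adjusted p = 0.805) and 1.36 in WT (2.56-fold, adjusted p = 3.22e-05), and the responses differed by -1.45 (adjusted p = 0.000417). EAAE differed from WT by -2.66 after E2 (adjusted p = 1.92e-07) and by -1.22 under saline (adjusted p = 0.000181). The cationic amino acid carrier Slc7a1 rose in WT by 1.12 (adjusted p = 0.0351) on a probe that 2 arrays did not hold above background. The smallest p values of this role in EAAE were those of the carriers Slc7a2 (0.74, adjusted p = 0.188) and Slc7a1 (-0.42, adjusted p = 0.639).

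Of the tested paralogs of the 10 genes, Amd2 rose in WT by 0.88 (adjusted p = 0.00103), as Amd1 did, while Azin2 (-0.88, adjusted p = 0.000186) and Sat2 (-1.47, adjusted p = 1.35e-05) fell. Sat2 is related to Sat1 by sequence and is known to acetylate thialysine. It lay at 0.06, 0.44 and 0.20 in EAAE E2 uteri, against 0.04, 0.41 and 0.53 in EAAE saline uteri, and at -1.21, -1.36 and -1.23 in WT E2 uteri, against 0.09, 0.24 and 0.28 in WT saline uteri. Only the WT E2 uteri stood apart. In EAAE, Amd2 (-0.42, adjusted p = 0.227) and Azin2 (-0.23, adjusted p = 0.39) had the smallest p. All 3 tested paralogs differed between the responses, beside 37.3% of all genes. Sat2 differed by 1.38 (adjusted p = 0.000415), Amd2 by -1.30 (adjusted p = 0.00138) and Azin2 by 0.65 (adjusted p = 0.0137).

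S-adenosylmethionine comes from methionine through the catalytic subunit Mat2a and its regulatory partner Mat2b, which moved in opposite directions. Mat2a lay at 4.59, 4.53 and 4.58 in EAAE E2 uteri, against 4.81, 4.76 and 4.66 in EAAE saline uteri, and at 5.69, 5.81 and 5.73 in WT E2 uteri, against 4.50, 4.61 and 4.56 in WT saline uteri. EAAE E2 uteri stood below their saline group and WT E2 uteri above theirs. The change was -0.18 in EAAE (adjusted p = 0.263) and 1.18 in WT (adjusted p = 9.46e-07), while that of Mat2b was -0.02 in EAAE (adjusted p = 0.94) and -0.88 in WT (adjusted p = 1.57e-05). The responses of both differed, by -1.36 (adjusted p = 9.85e-06) and 0.86 (adjusted p = 0.000363). In the salvage of methylthioadenosine, the by-product of Srm and Sms, Mtap (-0.25, adjusted p = 0.0261) and Mri1 (-0.56, adjusted p = 0.00841) fell in WT, and 1 of the 3 Mri1 probes gave -0.12. In EAAE the smallest p were those of Mtap (-0.24, adjusted p = 0.2) and Apip (0.25, adjusted p = 0.229). The responses of Mri1 (0.94, adjusted p = 0.00507) and Apip (0.48, adjusted p = 0.0175) differed too.

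Spermidine is the source of hypusine, the modified lysine of eIF5A. Eif5a itself rose in WT by 0.62 (adjusted p = 0.0001) against 0.08 in EAAE (adjusted p = 0.658). Dohh, which completes hypusine, gave 0.62 in WT (adjusted p = 0.000116) and 0.12 in EAAE (adjusted p = 0.512). Its dimmer probe gave -0.26 in WT, against this direction. Eif5a2 (-0.08) and Dhps (0.11) were not called in WT. The responses of Eif5a (-0.54, adjusted p = 0.0037) and Dohh (-0.51, adjusted p = 0.00595) differed.

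Apart from Slc47a1, all of the 6 transport genes changed with E2 in WT, beside 49.3% of all genes. Their responses all differed too, beside 37.3%. In EAAE 0 of the 6 were called by limma, beside 1.45% of all genes. At an unadjusted p under 0.05, 1 differed, and the share of all genes at that cutoff was not taken. Slc47a1 passed both thresholds as well, but its probe was kept through the EAAE groups alone and was above background on no WT E2 array. Its WT change is thus a bound. By limma over all probes, its dimmer probe was called neither in WT (-1.61, adjusted p = 0.0509) nor for the response difference (1.80, adjusted p = 0.13). The counts over the whole wider list include Slc47a1. Atp13a3, a transporter of polyamines, rose in WT by 1.30 (adjusted p = 1.77e-06), and Slc3a2, which also carries amino acids with partner chains, by 0.65 (adjusted p = 0.00104). The lysosomal exporter Atp13a2 (-0.58, adjusted p = 6.96e-05), the vesicular carrier Slc18b1 (-0.58, adjusted p = 0.000376) and the organic cation carrier Slc22a3 (-0.50, adjusted p = 0.0152) fell. In EAAE the smallest p were those of Atp13a2 (0.22, adjusted p = 0.16) and Atp13a3 (-0.14, adjusted p = 0.468). Slc47a1, an exporter of organic cations, was well above background on 0 of 3 WT E2 arrays and on 2 of 3 WT saline arrays. Its levels were -2.39, -1.67 and -1.91 in EAAE E2 uteri, against -6.13, -6.29 and -6.20 in WT E2 uteri. It was at least 12.4-fold higher in EAAE after E2. Under saline it lay at -1.78, -2.20 and -2.65 in EAAE uteri, against -5.46, -5.51 and -5.66 in WT uteri (difference 3.34, with 1 WT array not above background). Since the filter kept the probe through the EAAE groups, where it is high, these genotype differences of Slc47a1 are descriptions and not tests. Its dimmer probe gave 1.72, which was not called. With E2 in WT it was at least 1.05-fold lower (adjusted p = 0.0279).

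Over the 26 genes, the responses differed for 17, 10 higher and 7 lower in EAAE, beside 22.2% and 15.1% over all genes. Slc7a2 was among the higher (1.21, adjusted p = 0.0236), on a probe above background on 2 of 3 WT E2 arrays. Between the genotypes, 4 genes were higher and 2 lower in EAAE under saline, beside 14.5% and 15% of all genes. After E2 11 were higher and 6 lower, beside 33.5% and 24.5% of all genes. Both counts of higher genes include Slc47a1, which the filter kept through the EAAE groups alone. Those higher under saline were Amd2 (0.97), Slc47a1, Adi1 (0.45) and Slc22a3 (0.43), and those lower were Arg2 and Apip (-0.44). After E2 the lower ones were Arg2, Atp13a3 (-1.32), Mat2a (-1.18), Slc3a2 (-0.74), Eif5a (-0.71) and Dohh (-0.56). The higher ones, besides Slc47a1, were Sat2 (1.5), Slc7a2 (1.38), Mat2b (1.08), Slc22a3 (1.06), Oat (0.78), Atp13a2 (0.72), Slc18b1 (0.64), Mri1 (0.61), Adi1 (0.44) and Azin2 (0.38). The dimmer Dohh probe was higher in EAAE after E2 by 0.59, opposite to the brighter one.

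**Figure D5:**
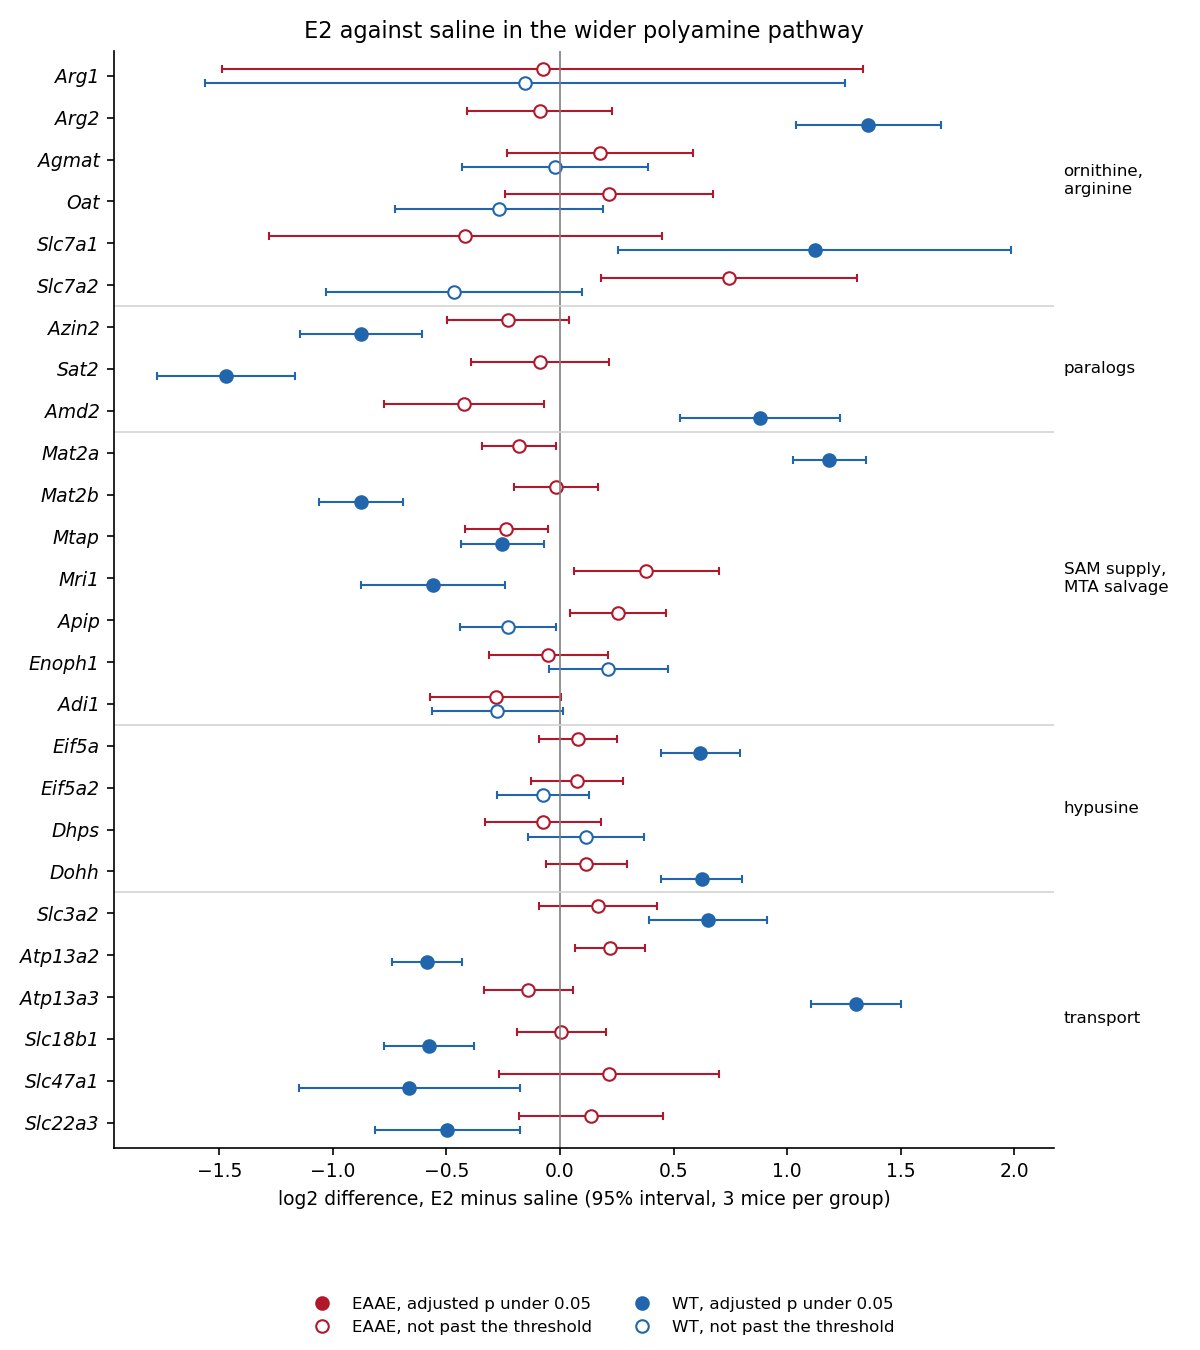
Log2 difference between E2 and saline uteri in EAAE (red) and WT (blue) for the 26 tested genes around the pathway, grouped by role at the right (SAM, S-adenosylmethionine; MTA, methylthioadenosine), with 95% intervals from 3 mice per group; filled points passed an adjusted p of 0.05. No EAAE point is filled, and 17 WT points are, 8 right and 9 left of 0.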

How the data were processed

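Transcripts of 12 uteri were measured on single-colour Agilent arrays, from 500 ng of total RNA each per the labels. Spots were extracted by the authors with Agilent Feature Extraction 9.5.3.1, per the file headers, which the submitters' processing notes give as 9.5. Its processed signal, as deposited, is an intensity on a linear scale that was background-corrected array by array and left unscaled across arrays. The intensity values of the deposited series-wide table equalled those of the scanner files. Per array, the median intensity was 163 to 249, the median local background 62.0 to 81.0, and 56 to 117 spots were outliers and left out, as were 1639 control spots. The 3 to 5 saturated spots were kept. Precision is limited by having 3 mice per group.

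The log2 of the deposited intensity was taken, the array's 75th percentile was subtracted and spots of a probe were averaged. A probe was kept (29017 of 41174) if some group held it well above background on each of its arrays, and a gene was read from its brightest probe. Gene names came from a RefSeq table of assembly GRCm38.p6, by accession for 22951 probes, and 8155 probes kept the name they had in the files. The test was limma (version 3.58.1, with lmFit and eBayes in R 4.3.3) on all 12 arrays, 2-sided, in 5 comparisons, with a second fit over all probes. The tests were checked on simulated data. "At least" folds set the brighter mean against a floor for the dimmer group, averaged over its arrays: on each, the lowest value well above background, or the probe's own if higher. The labels do not say whether the 3 mice of a group were littermates. The labels' replicate numbers did not pair the mice: correlations of same-numbered deviations ran from -0.12 to -0.04 in WT and from -0.28 to 0.19 in EAAE.

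Named were all 10 genes everywhere and, of the wider list, those past the threshold or, where a role had none, the 2 with the smallest p. The genes, lists and motifs were chosen with earlier results of these data known. Alternatives were other scalings (array median, quantile), normexp with an offset of 50, no filter or a filter on all 12 arrays, the median over probes, slide and position terms, the replicate block, only the groups compared, the deposited table and leaving out each array. Python 3.11.15, pandas 2.3.3 and matplotlib 3.10.9 were used.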

Additional observations from a re-analysis of the deposited data

Results flagged for a closer look

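The response to E2 differed between the genotypes, by the interaction term in limma, for 5 of the 10 polyamine genes, beside 37.3% of all genes. Values are the EAAE response minus the WT response on the log2 scale. They were -1.47 for Srm, with an EAAE response of 0.42 and a WT response of 1.89. They were -1.18 for Amd1 (-0.07 in EAAE and 1.11 in WT), -0.86 for Azin1 (0.41 and 1.27) and -0.83 for Odc1 (0.12 and 0.95). The value was 0.89 for Paox, which stood at 0.44 in EAAE and at -0.45 in WT. Over the 22 alternatives these differences ranged from -1.56 to -1.38 for Srm, -1.28 to -1.08 for Amd1, -0.97 to -0.71 for Azin1, -0.92 to -0.75 for Odc1 and 0.67 to 1.06 for Paox, with the highest adjusted p at 0.0441, for Paox.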

How the results depend on the processing

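Of 1140 values of single genes under alternatives, 1083 kept their side of the threshold. A call was lost in 44 and gained in 13, and 0 called values changed sign. The deposited table held the same intensities, so its values could not differ. Leaving out an array outside the groups compared could move the SE and p of a change and not the change itself. The 7 calls for E2 in WT became 4 with slide and position together (Odc1, Srm, Amd1 and Azin1) and 6 to 8 without single arrays. The 1 call for E2 in EAAE became 0 with array median scaling, no filter on dim probes or slide as a block. It also became 0 with slide and position, the replicate block or only the groups compared. Without single arrays the count was 0 to 1. By limma 4 of the 10 had an unadjusted p under 0.05, a cutoff at which the share of all genes was not taken. The 7 calls for EAAE against WT under saline became 3 with slide as a block, 0 with slide and position (with Azin1 at 0.21 and Smox at -0.12) and 6 to 7 without single arrays. Without EAAE saline replicate 3 (-0.41, adjusted p = 0.0583) or WT saline replicate 2 (-0.42, 0.0557) the Smox call was lost, and with array median scaling that of Srm (-0.33, 0.0513). The response difference gave 5 to 6 calls and EAAE against WT after E2 gave 5 to 6 without single arrays. With the replicate block the counts were 7, 0, 5, 7 and 5 for E2 in WT, E2 in EAAE, the response difference, EAAE against WT under saline and after E2, so it changed no other call count. The response difference was not run on only the groups compared, since it needs all 4.

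Over all genes, the EAAE response of 133 higher and 147 lower became 71 and 49 with no filter, 66 and 74 with slide, 6 and 6 with slide and position, 73 and 68 with the replicate block, and 6 and 2 with the EAAE arrays alone. Single arrays left out gave from 38 and 25 (EAAE saline replicate 2) to 165 and 202 (EAAE E2 replicate 3). With slide and position, counts were 2572 and 3679 for E2 in WT, 228 and 191 for EAAE against WT under saline and 2918 and 2282 after E2, and with slide alone 1758 and 1871 under saline. The cause of these shifts was not tested. Signal over background limits the dimmest Sms probe, above background on 6 arrays, Slc47a1 in WT, and Slc7a1 and Slc7a2, which were each not above background on 1 or 2 arrays.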
